A study of Mus musculus with 8 samples.

Results

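Kinesins are motor proteins that use ATP to walk along microtubules, and the genes described here are the 43 kinesin heavy chain, light chain and kinesin-associated protein genes whose mRNA averaged at least 1 TPM (a level scaled for transcript length and library size) in cultured mouse hippocampal neurons. They were chosen by name, as the genes called Kif or Kifc with a number, Klc1 to Klc4 and Kifap3. The table holds 47 such names among 23845 genes, and 43 of them were among the 13681 genes that averaged at least 1 TPM over the 8 libraries. Just inside this bound lay Kif14, at 1 TPM in every library, and Kif24, at a mean of 1.13 TPM. Just outside lay Kif26a, at a mean of 0.75 TPM. Kif12, Kif2b and the pseudogene Kif4-ps were listed at 0 in every library. From their known roles, 22 of the 43 were counted as transport kinesins, 13 as mitotic kinesins and 8 as neither.

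Neurons were taken from mouse embryos at day 19 (E19) and infected at 13 to 15 days in vitro with a lentivirus that carried either an shRNA against Cnot7 or a scrambled shRNA, and were harvested at 17 to 19 days in vitro, so the controls were infected too. Cnot7 encodes a deadenylase of the CCR4-NOT complex, which shortens the poly(A) tails of mRNAs. Poly(A) RNA was bound to poly(U) agarose and either released whole at 75 °C, here total RNA, or first washed at 50 °C to take away tails under 50 nucleotides and then released at 75 °C, here long-tail RNA. The 4 groups of 2 libraries each were knockdown long-tail, scrambled long-tail, knockdown total and scrambled total. The sources used here give no mouse strain, no number of hairpins and no word on whether a group's libraries came from separate cultures, so p-values measure only the spread between these libraries, which may be technical.

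Kinesins differ by the cargo they carry and by where they act. Kinesin-1 pairs heavy chains (Kif5a, Kif5b, Kif5c), which hold the motor, with light chains (Klc1 to Klc4), which bind cargo and keep the idle motor folded. Kinesin-2 and kinesin-3 motors carry cilium components, synaptic vesicle precursors and dense core vesicles, and these families supply much of the anterograde traffic of axons and dendrites. Mitotic kinesins build the spindle and separate chromosomes, and are best known from dividing cells. Kinesin-13 motors such as Kif2a do not walk but take microtubule ends apart.

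The hairpin's target was low in the libraries labelled knockdown. Cnot7 had 12 and 16 TPM in knockdown total libraries, against 42 and 36 TPM in scrambled total libraries, and 9 and 11 TPM in knockdown long-tail libraries, against 28 and 31 TPM in scrambled long-tail libraries. Column sums of TPM were 999689 to 999809, and read depth is unknown. The ribosomal RNA entry Rn45s took 18.6% and 2.90% of TPM in knockdown long-tail libraries and 17.2% and 7.46% in scrambled long-tail ones. It took 6.07% and 14.3% in knockdown total libraries and 6.86% and 7.80% in scrambled total ones. Equal column sums thus do not put the other genes on the same scale in every library. Rescaling without Rn45s was among the alternatives. The neuronal genes Snap25 (mean 1316 TPM) and Camk2a (1234 TPM) were high, and the astrocyte gene Gfap averaged 2141 TPM. Of 7 microglia markers, 3 (Aif1, Tmem119 and Cx3cr1) were listed at 0 in all 8 libraries, while C1qb averaged 2.25 TPM and C1qa 1.75 TPM. Of 7 vessel markers, 2 (the endothelial genes Cldn5 and Pecam1) were listed at 0 in all 8 libraries. Kdr averaged 13.1 TPM, Pdgfrb 10.25 TPM and Rgs5 4.125 TPM, so these cell types cannot be called absent. Knockdown long-tail library 2 stood apart on the first principal component (50.1% of the variance), and its correlation with its partner across genes of at least 20 TPM was 0.944, against 0.970 to 0.979 within the other groups. The main differences that rest on it are given with and without it. Standard errors, intervals and p-values of the main fit use a spread pooled over all 8 libraries, also those for total RNA.

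Transport kinesins made up most of the kinesin mRNA, and Klc1 had the highest mean over the 8 libraries, knockdown included. In scrambled total libraries Kif1a was higher, at 349 and 375 TPM, against 291 and 300 TPM for Klc1. In scrambled long-tail libraries Klc1 was higher, at 262 and 310 TPM, against 228 and 239 TPM for Kif1a. TPM is scaled by transcript length, but levels of short and long transcripts shifted against each other between the fractions. Across 6528 genes of at least 20 TPM in scrambled neurons, the long-tail minus total difference fell with transcript length (Spearman's rho -0.82). Length scaling thus does not put short and long kinesins on the same scale in both fractions, and means over the 8 libraries mix the fractions. Mean levels over the 8 libraries ran from 3.38 to 448 TPM among the 22 transport kinesins (median 56.4 TPM) and from 1.0 to 9.5 TPM among the 13 mitotic ones (median 3.75 TPM). The 8 kinesins of neither class had a median of 2.81 TPM and reached 42.5 TPM in Kif2a. Summed levels of the transport kinesins were 1992 and 1803 TPM in knockdown long-tail libraries and 1657 and 1841 TPM in scrambled long-tail libraries, 2685 and 2625 TPM in knockdown total libraries and 2291 and 2443 TPM in scrambled total libraries. Summed levels of the mitotic kinesins were 48 and 60 TPM in knockdown long-tail libraries and 51 and 67 TPM in scrambled long-tail libraries, 66 and 79 TPM in knockdown total libraries and 66 and 77 TPM in scrambled total libraries.

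**Figure D1:**
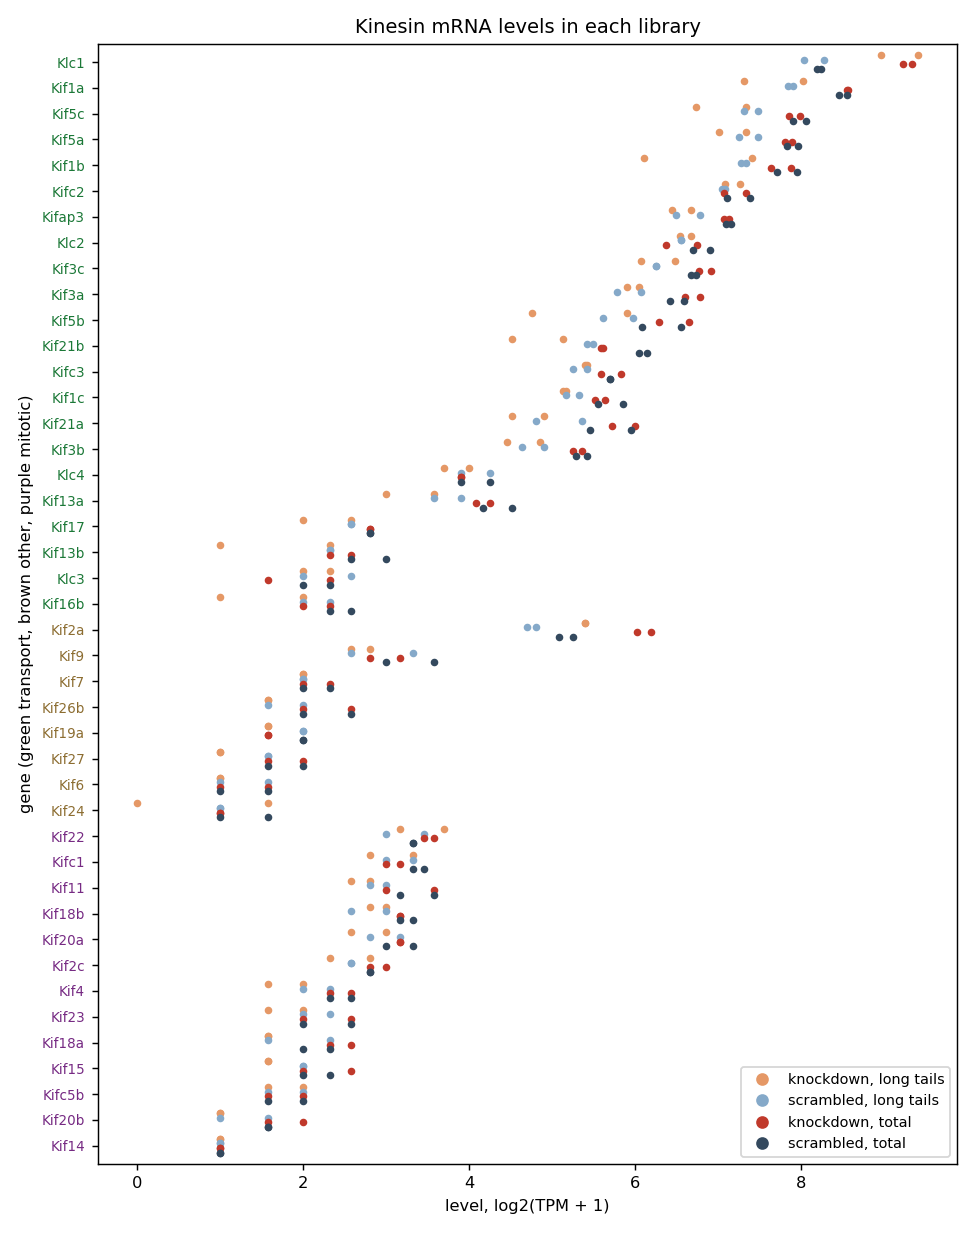
Level of each of the 43 kinesin mRNAs in each of the 8 libraries as log2(TPM + 1), 1 point per library, with transport kinesins at the top, kinesins of neither class in the middle and mitotic kinesins at the bottom, each sorted by mean level. The highest mitotic kinesin, Kif22, averaged 9.5 TPM, below 18 of the 22 transport kinesins.

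In Klc1 and Kif2a both knockdown libraries lay above both scrambled libraries in both RNA fractions, while in the kinesin-1 heavy chains and the other light chains the groups overlapped in total RNA. In Kif21b both knockdown libraries lay below both scrambled ones in both fractions. Both Klc1 and Kif2a were also in the authors' deposited tables of changed genes for both fractions. None of the 13 kinesins counted as mitotic was in those tables. That rests on the classing, which was chosen with earlier results known. Kif2a was counted as neither transport nor mitotic, although Kif2c was counted as mitotic, and with Kif2a in the mitotic class the statement would not hold.

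Klc1 encodes the main neuronal kinesin light chain (ENSMUSG00000021288.18, chr12:111758849-111807844, plus strand, GRCm38). It had 644 and 600 TPM in knockdown total libraries, against 291 and 300 TPM in scrambled total libraries, and 498 and 680 TPM in knockdown long-tail libraries, against 262 and 310 TPM in scrambled long-tail libraries. Both knockdown libraries lay above both scrambled libraries in each fraction, and the means were 622 ± 31.1 against 295.5 ± 6.36 TPM in total RNA and 589 ± 129 against 286 ± 33.9 TPM in long-tail RNA (SD, n = 2 each). The difference in log2(TPM + 1) was 1.07 (SE 0.181) in total RNA and 1.03 (SE 0.181) in long-tail RNA, with limma p-values adjusted over all 13681 genes of 0.302 and 0.328. In the authors' deposited table Klc1 was higher by 1.01 (log2, SE 0.177, adjusted p = 8.94e-06) in total RNA and by 1.00 (SE 0.177, adjusted p = 1.02e-05) in long-tail RNA. Without knockdown long-tail library 2 the long-tail difference was 0.80.

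Kif2a, the kinesin-13 that trims microtubule ends and limits the growth of axon branches (ENSMUSG00000021693.20, chr13:106958996-107022126, minus strand, GRCm38), had 64 and 72 TPM in knockdown total libraries, against 33 and 37 TPM in scrambled total libraries. In long-tail RNA it had 41 TPM in both knockdown libraries, against 25 and 27 TPM in scrambled libraries. Knockdown and scrambled libraries did not overlap in either fraction. The log2(TPM + 1) difference was 0.94 (SE 0.116, limma adjusted p = 0.12) in total RNA and 0.64 (SE 0.116, limma adjusted p = 0.328) in long-tail RNA. The authors' deposited table gives 0.92 (log2, adjusted p = 5.27e-05) in total RNA and 0.68 (adjusted p = 0.0135) in long-tail RNA. Kif2a's principal transcript shares 1229 of its 5304 bases with exons of Dimt1, an rRNA methyltransferase gene on the opposite strand, and the sources used here do not say whether reads were counted by strand. An opposite-strand exon overlaps the principal transcript of 13 of the 43 kinesins, 5 of them with at least 20 TPM, and not that of Klc1. Other transcripts of these genes were not compared. Dimt1 itself had 8 and 7 TPM in knockdown total libraries and 8 and 7 TPM in scrambled total libraries, and 5 and 9 TPM in knockdown long-tail libraries and 7 and 7 TPM in scrambled long-tail libraries.

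Both genes have promoters rich in G and C. The windows from 250 bases before to 50 bases after the transcription start, taken from RefSeq (GRCm38.p6), are shown because in these kinesins both knockdown libraries lay above both scrambled ones in both fractions; capitals mark the GC box GGGCGG on either strand.
Klc1, chr12:111758618-111758917, plus strand: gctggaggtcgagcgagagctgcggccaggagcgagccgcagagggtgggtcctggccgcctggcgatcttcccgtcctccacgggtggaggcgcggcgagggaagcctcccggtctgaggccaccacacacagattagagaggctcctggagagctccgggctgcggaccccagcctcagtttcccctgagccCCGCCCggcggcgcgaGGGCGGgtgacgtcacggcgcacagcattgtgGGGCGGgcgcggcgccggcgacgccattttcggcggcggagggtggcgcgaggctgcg
Kif2a, chr13:107022065-107022364, minus strand: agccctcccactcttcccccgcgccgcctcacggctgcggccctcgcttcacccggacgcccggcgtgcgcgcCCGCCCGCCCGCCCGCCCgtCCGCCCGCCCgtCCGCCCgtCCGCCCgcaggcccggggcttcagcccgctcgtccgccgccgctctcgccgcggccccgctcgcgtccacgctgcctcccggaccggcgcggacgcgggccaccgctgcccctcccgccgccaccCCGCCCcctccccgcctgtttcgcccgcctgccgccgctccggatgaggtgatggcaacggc
The Klc1 window is 73.7% G or C and holds 3 GC boxes, and the Kif2a window is 82.7% G or C and holds 9, some of which overlap. A GC box was present in 13 of the 15 transport kinesins with a window (86.7%) and in 6 of 12 mitotic kinesins (50.0%), beside 35.7% of all 32851 windows. A match of letters is a description and does not show binding.

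Kif21b, a kinesin-4 that pauses microtubule growth and carries dendritic cargo (ENSMUSG00000041642.18, chr1:136131389-136177998, plus strand, GRCm38), was lower. It had 47 and 48 TPM in knockdown total libraries, against 70 and 65 TPM in scrambled total libraries, and 34 and 22 TPM in knockdown long-tail libraries, against 44 and 42 TPM in scrambled long-tail libraries. The libraries did not overlap in either fraction. The log2(TPM + 1) difference was -0.50 (SE 0.204, limma adjusted p = 0.812) in total RNA and -0.63 (SE 0.204, limma adjusted p = 0.503) in long-tail RNA, and the long-tail value was -0.33 without knockdown long-tail library 2 and -0.94 without knockdown long-tail library 1. Kif21b is in neither of the authors' deposited tables.

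Markers of other cells moved with knockdown beside these differences. All 10 oligodendrocyte lineage markers examined were lower in knockdown in both fractions, none was at 0, and their summed level was 1067 and 1355 TPM in knockdown long-tail libraries, against 1585 and 1988 TPM in scrambled ones, and 1255 and 1244 TPM in knockdown total libraries, against 1981 and 1826 TPM in scrambled ones. The 8 general neuron markers summed to 3335 and 3669 TPM in knockdown long-tail libraries, against 2914 and 3174 TPM in scrambled ones, and to 4433 and 3720 TPM in knockdown total libraries, against 3941 and 3434 TPM in scrambled ones, with 5 of 8 higher in total RNA and 6 of 8 in long-tail RNA. One of them, the neuronal tubulin gene Tubb3, had 527 and 657 TPM in knockdown long-tail libraries, against 271 and 307 TPM in scrambled ones, and 662 and 530 TPM in knockdown total libraries, against 336 and 322 TPM in scrambled ones. Without Tubb3 the other 7 neuron markers summed to 2808 and 3012 TPM in knockdown long-tail libraries, against 2643 and 2867 TPM in scrambled ones, and to 3771 and 3190 TPM in knockdown total libraries, against 3605 and 3112 TPM in scrambled ones, so that the groups overlapped in both fractions. The 8 astrocyte markers summed to 3709 and 2550 TPM in knockdown long-tail libraries, against 3708 and 3263 TPM in scrambled ones, and to 4869 and 3251 TPM in knockdown total libraries, against 4940 and 3874 TPM in scrambled ones, with 6 of 8 lower in long-tail RNA (median difference -0.36) and 7 of 8 lower in total RNA (median -0.17). Oligodendrocyte sums did not overlap between groups in either fraction. General neuron sums with Tubb3 did not overlap in long-tail RNA, and astrocyte sums with Gfap overlapped in both. Without Gfap the other 7 astrocyte markers summed to 1372 and 939 TPM in knockdown long-tail libraries, against 1405 and 1654 TPM in scrambled ones. In total RNA these 7 summed to 1791 and 1763 TPM in knockdown libraries, against 2006 and 2107 TPM in scrambled ones. Knockdown sums of these 7 thus lay below scrambled sums without overlap in both fractions. Fewer cells of a type and less RNA per cell cannot be told apart in bulk RNA, and the part of either in the kinesin differences was not tested.

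**Figure D2:**
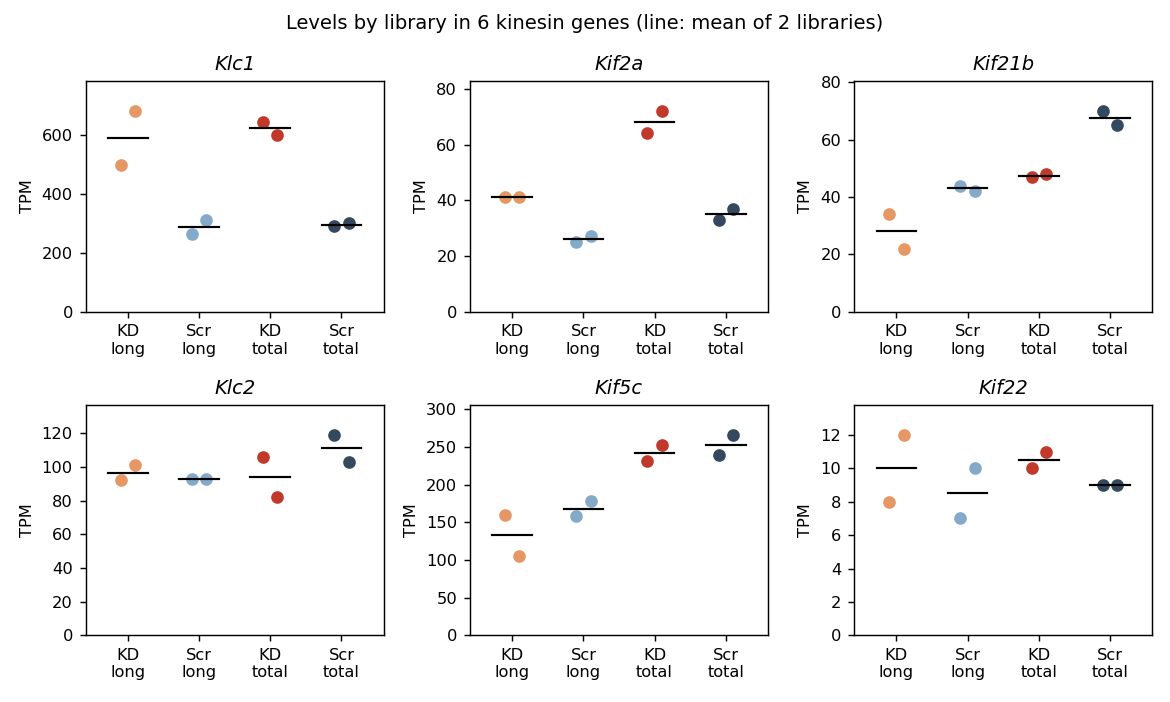
TPM in each library (points) and the mean of 2 libraries (lines) for 6 kinesin genes, with knockdown (KD) left of scrambled (Scr) in long-tail and in total RNA; every axis starts at 0. Knockdown libraries lie above scrambled ones in both fractions in Klc1 and Kif2a and below them in Kif21b, while Klc2 and Kif5c overlap in both fractions and Kif22 overlaps in long-tail RNA.

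A pair of kinesins with 1 to 3 TPM also had small unadjusted p-values. Kif19a, a motor that shortens motile cilia, had 2 TPM in each of the 4 knockdown libraries and 3 TPM in each of the 4 scrambled libraries, a log2(TPM + 1) difference of -0.42 in both fractions (limma adjusted p = 0.324 in total RNA and 0.328 in long-tail RNA). Kif27, a relative of Kif7 with a role in motile cilia, had 2 and 3 TPM in knockdown and in scrambled total libraries alike, and 1 TPM in both knockdown long-tail libraries, against 2 TPM in both scrambled long-tail libraries (limma adjusted p = 0.503). The deposited TPM are whole numbers, so both differences are a single step of the table, and libraries that differ by less than a step look identical. Of 7 motile cilia markers tested, all 7 were lower in knockdown long-tail RNA (median difference -0.37), and 6 were lower and 1 identical in total RNA (median -0.10). The motile cilia markers summed to 111 and 150 TPM in knockdown long-tail libraries, against 121 and 166 TPM in scrambled ones, and to 133 and 138 TPM in knockdown total libraries, against 153 and 165 TPM in scrambled ones. Most of these sums was Foxj1, with 97 and 94 TPM in knockdown total libraries, against 118 and 113 TPM in scrambled ones. It was the only 1 of the 7 markers with separated groups in total RNA, and 0 separated in long-tail RNA. The part of these markers in the differences of Kif19a and Kif27 was not tested.

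In the kinesin-1 heavy chains knockdown and scrambled libraries overlapped in total RNA. Kif5c, a heavy chain found mainly in neurons, had 231 and 252 TPM in knockdown total libraries, against 239 and 266 TPM in scrambled ones. Kif5a, the other heavy chain found mainly in neurons, had 236 and 222 TPM in knockdown total libraries, against 227 and 249 TPM in scrambled ones. Kif5b, the ubiquitous heavy chain, had 77 and 99 TPM in knockdown total libraries, against 67 and 93 TPM in scrambled ones. The 95% confidence intervals of the log2(TPM + 1) differences ran from -0.59 to 0.47 for Kif5c, from -0.44 to 0.33 for Kif5a and from -0.88 to 1.16 for Kif5b. That of Kif5b includes the Klc1 difference of 1.07. These intervals use a spread pooled over all 8 libraries, so that of Kif5b also carries the gap between the knockdown long-tail libraries (59 and 26 TPM).

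In long-tail RNA Kif5c had 160 and 105 TPM in knockdown libraries, against 158 and 178 TPM in scrambled ones. Kif5a had 161 and 128 TPM in knockdown long-tail libraries, against 152 and 178 TPM in scrambled ones. Kif5b had 59 and 26 TPM in knockdown long-tail libraries, against 48 and 62 TPM in scrambled ones. In all 3 genes library 1 of the knockdown lay inside the scrambled range and library 2, which stands apart across genes, lay below it. The Kif5b difference was -0.47 with both libraries and 0.11 without library 2.

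Among the light chains, Klc2 had 106 and 82 TPM in knockdown total libraries, against 119 and 103 TPM in scrambled ones, and 92 and 101 TPM in knockdown long-tail libraries, against 93 and 93 TPM in scrambled ones. Klc4 had 14 TPM in both knockdown total libraries, against 14 and 18 TPM in scrambled ones, and Klc3 had 4 and 2 TPM in knockdown total libraries, against 4 and 3 TPM in scrambled ones. None of these 3 genes separated the groups in either fraction. The share of Klc1 among light chain mRNAs was higher in every knockdown library than in any scrambled one. Klc1 made up 83.9% and 86.0% of light chain TPM in knockdown total libraries, against 68.0% and 70.8% in scrambled total libraries, and 82.2% and 85.1% in knockdown long-tail libraries, against 70.1% and 73.1% in scrambled long-tail libraries.

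Summed light chain TPM over summed heavy chain TPM was 1.41 and 1.22 in knockdown total libraries, against 0.803 and 0.697 in scrambled total libraries. In long-tail RNA it was 1.59 and 3.08 in knockdown libraries, against 1.04 and 1.01 in scrambled libraries. The knockdown ratios lay above the scrambled ratios in both fractions. With Klc1 left out, the ratio was 0.228 and 0.171 in knockdown total libraries, against 0.257 and 0.204 in scrambled ones, and 0.284 and 0.460 in knockdown long-tail libraries, against 0.313 and 0.273 in scrambled ones, so that the groups overlapped. The value of 3.08 belongs to knockdown long-tail library 2, where the heavy chain sum was 259 TPM, against 380 TPM in library 1.

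**Figure D3:**
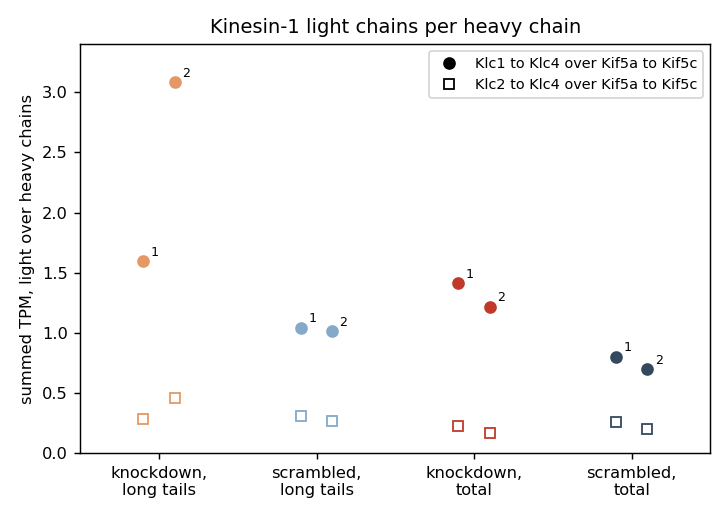
Ratio of summed light chain TPM to summed Kif5a, Kif5b and Kif5c TPM in each library, with all light chains (filled circles, replicate number beside each) and without Klc1 (open squares). With Klc1 every knockdown library lies above the scrambled libraries of its fraction, the highest being knockdown long-tail library 2 at 3.08; without Klc1 all values lie between 0.171 and 0.460.

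Other abundant transport kinesins overlapped between the groups, apart from a pair of kinesin-2 motors in total RNA. Kif1a, the kinesin-3 that carries synaptic vesicle precursors, had 373 and 377 TPM in knockdown total libraries, against 349 and 375 TPM in scrambled ones, and 260 and 158 TPM in knockdown long-tail libraries, against 228 and 239 TPM in scrambled ones. Kif1b, its close relative that also carries mitochondria, had 198 and 234 TPM in knockdown total libraries, against 209 and 246 TPM in scrambled ones, and 169 and 68 TPM in knockdown long-tail libraries, against 154 and 160 TPM in scrambled ones. Groups overlapped in both fractions for both genes, and in long-tail RNA the low knockdown value was again that of library 2. Without it the Kif1b long-tail difference was 0.11, and with it -0.54.

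Kifc2, a minus-end directed kinesin of neurons, had 161 and 133 TPM in knockdown total libraries, against 166 and 137 TPM in scrambled ones, and 135 and 153 TPM in knockdown long-tail libraries, against 135 and 131 TPM in scrambled ones. Kifap3, the non-motor subunit of kinesin-2, had 139 and 133 TPM in knockdown total libraries, against 136 and 141 TPM in scrambled ones, and 101 and 86 TPM in knockdown long-tail libraries, against 89 and 109 TPM in scrambled ones. Neither gene separated the groups in either fraction. The kinesin-2 motors Kif3a and Kif3c did so in total RNA but not in long-tail RNA, with Kif3a at 109 and 96 TPM in knockdown libraries, against 85 and 95 TPM in scrambled ones, and Kif3c at 120 and 108 TPM in knockdown libraries, against 105 and 101 TPM in scrambled ones. The log2(TPM + 1) differences were 0.18 (SE 0.145) for Kif3a and 0.14 (SE 0.155) for Kif3c, with intervals that include 0. Separation in total RNA was common across genes. Both knockdown libraries lay above both scrambled ones in 5 of 43 kinesins (11.6%), against 1187 of 13681 genes. They lay below in 3 kinesins (6.98%), against 2756 genes.

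Over the whole family limma called no kinesin at an adjusted p under 0.05 for knockdown minus scrambled, in total RNA (0% of all genes called) or in long-tail RNA (0% of all genes called). At an unadjusted p under 0.05 in total RNA, 2 of 43 kinesins were higher (Klc1 and Kif2a), against 2.05% of all genes, and 1 was lower (Kif19a), against 4.30% of all genes. In long-tail RNA the same 2 kinesins were higher, against 2.25% of all genes, and 3 were lower (Kif21b, Kif19a and Kif27), against 6.47% of all genes. The libraries did not overlap in both fractions in 2 kinesins that were higher in knockdown (Klc1 and Kif2a), 4.65% of the 43, against 2.71% of all genes, and in 2 that were lower (Kif21b and Kif19a), again 4.65%, against 9.49% of all genes. The authors' deposited table for total RNA holds 2 kinesins and 0.760% of all genes, and the authors' deposited table for long-tail RNA holds the same 2 kinesins and 0.709% of all genes.

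**Figure D4:**
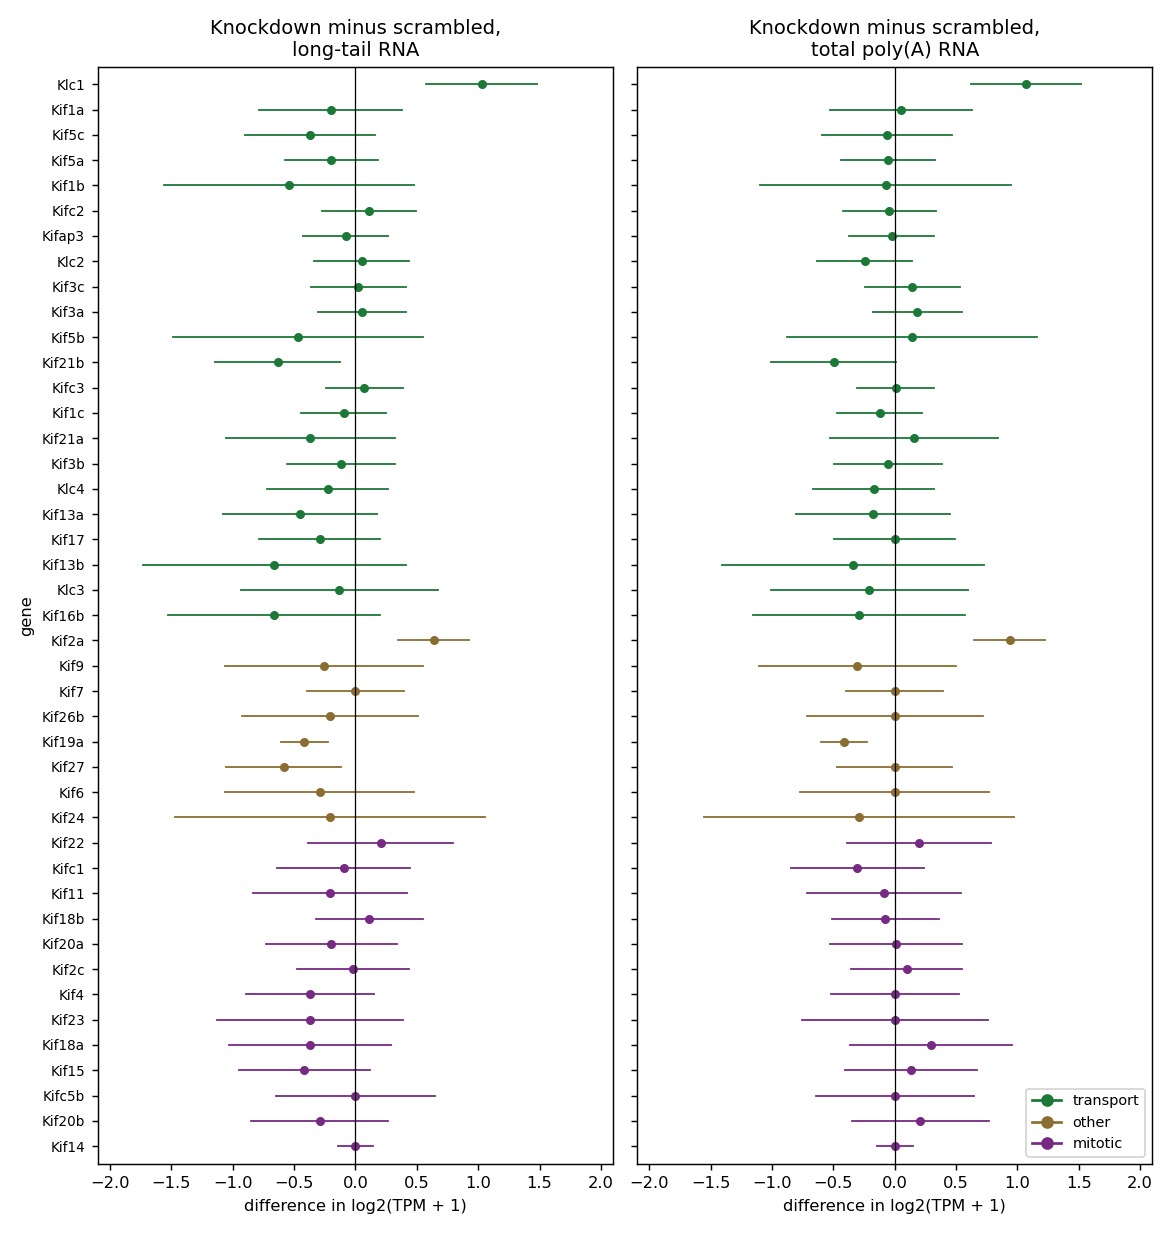
Knockdown minus scrambled difference in log2(TPM + 1) for the 43 kinesins, with 95% confidence intervals from limma that are not adjusted for the number of genes, in long-tail RNA (left) and in total RNA (right). Klc1 and Kif2a lie to the right of 0 in both panels, Kif21b to the left in both, and the mitotic kinesins scatter around 0 in total RNA and mostly lie left of it in long-tail RNA.

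Transport and mitotic kinesins were set beside each other by their medians, which were not tested. In total RNA 7 of 22 transport kinesins were higher and 14 lower in knockdown (median difference -0.05), and 6 of 13 mitotic kinesins were higher, 3 lower and 4 identical (median 0.0), beside a median of -0.07 over all genes tested. Under median-of-ratios scaling, 14 transport kinesins were higher and 8 lower in total RNA, and 11 mitotic kinesins were higher and 2 lower, beside a median of 0.01 over all genes, so the direction of these small shifts depends on scaling. In long-tail RNA 6 transport kinesins were higher and 16 lower (median -0.20), and 2 mitotic kinesins were higher, 9 lower and 2 identical (median -0.20), beside -0.10 over all genes, and under median-of-ratios scaling 7 transport kinesins were higher and 15 lower, and 5 mitotic kinesins were higher and 8 lower. Genes averaging 1 to 10 TPM, the range that holds the mitotic kinesins, had knockdown medians of -0.085 in total and -0.16 in long-tail RNA without rescaling. Without knockdown long-tail library 2 the long-tail medians were 0.01 in transport and -0.26 in mitotic kinesins, beside -0.11 over all genes. None of the 13 kinesins counted as mitotic, a class that leaves out Kif2a, had an unadjusted limma p under 0.05 in either fraction.

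The mitotic kinesins with the highest levels were Kif22, Kifc1 and Kif11, followed by Kif18b and Kif20a with the same mean of 7.25 TPM. Kif22, which pushes chromosome arms toward the spindle equator, had 10 and 11 TPM in knockdown total libraries, against 9 and 9 TPM in scrambled ones, and 8 and 12 TPM in knockdown long-tail libraries, against 7 and 10 TPM in scrambled ones. Kif11, which slides spindle microtubules apart and also acts in growing axons, had 7 and 11 TPM in knockdown total libraries, against 8 and 11 TPM in scrambled ones, and 6 and 5 TPM in knockdown long-tail libraries, against 6 and 7 TPM in scrambled ones. Kif18b, which acts on astral microtubules, had 8 and 8 TPM in knockdown total libraries, against 9 and 8 TPM in scrambled ones, and 6 and 7 TPM in knockdown long-tail libraries, against 5 and 7 TPM in scrambled ones. Kif20a, a motor of the central spindle, had 8 and 8 TPM in knockdown total libraries, against 7 and 9 TPM in scrambled ones, and 5 and 7 TPM in knockdown long-tail libraries, against 6 and 8 TPM in scrambled ones. In long-tail RNA the groups overlapped or shared a value in all 4 genes. In total RNA they did so in Kif11, Kif18b and Kif20a, while both knockdown libraries of Kif22 lay 1 or 2 TPM above the scrambled ones.

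Kifc1, a minus-end directed motor that focuses spindle poles, had 8 and 7 TPM in knockdown total libraries, against 9 and 10 TPM in scrambled ones, and 6 and 9 TPM in knockdown long-tail libraries, against 7 and 9 TPM in scrambled ones. The groups did not overlap in total RNA, where the log2(TPM + 1) difference was -0.31 (limma adjusted p = 0.931), and overlapped in long-tail RNA. Kifc1 shares 58.8% of the 31-base stretches of its principal transcript with its near copy Kifc5b, so the split of reads between them is uncertain. The 24 other proliferation genes examined, such as Mki67 and Top2a, were all among the genes tested and summed to 323 and 420 TPM in knockdown long-tail libraries, against 356 and 438 TPM in scrambled ones, and to 393 and 427 TPM in knockdown total libraries, against 411 and 435 TPM in scrambled ones.

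Mitotic and transport kinesins differed in a promoter sequence. The cell cycle genes homology region (CHR) is a short element bound by complexes that switch late cell cycle genes. It was searched as TTTGAA or TTCGAA on both strands of the windows described above. RefSeq windows were found for 34 of the 43 kinesins, 15 of them transport and 12 mitotic. A CHR match was present in 11 of the 12 mitotic kinesins (91.7%) and in 0 of the 15 transport kinesins, beside 19.2% of all 32851 windows. Kif24, Kif26b and Kif27, of neither class, also had a match, so that 14 of the 34 kinesins did (41.2%). Kifc1 and its near copy Kifc5b are counted separately. Within 30 bases of the start a match was present in 9 of 12 mitotic kinesins, beside 3.45% of all windows. The match nearest the start with 10 bases on either side is shown for the 11 genes, read on the strand that holds TTTGAA, with the match in capitals.
Kif22, chr7:127042422-127042447, plus strand: gcttctctctTTTGAAttaccggggc
Kifc1, chr17:33890617-33890642, plus strand: acccgccactTTTGAAtttcaacctc
Kif11, chr19:37376353-37376378, minus strand: gcgcctcaatTTTGAAaaatggagac
Kif18b, chr11:102925106-102925131, minus strand: gaccggctagTTTGAAcgcgccgcgc
Kif2c, chr4:117178860-117178885, plus strand: attactcaggTTTGAAagagcagcct
Kif4, chrX:100626074-100626099, plus strand: ctgggatcaaTTTGAAacttggcggt
Kif23, chr9:61946782-61946807, minus strand: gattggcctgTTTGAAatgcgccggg
Kif15, chr9:122951052-122951077, minus strand: tggccgcagaTTTGAAtttggcgccc
Kifc5b, chr17:26917110-26917135, minus strand: accagtcactTTTGAAtttcaacctc
Kif20b, chr19:34922355-34922380, plus strand: gccgccattgTTTGAAtttgaaaacc
Kif14, chr1:136467610-136467635, plus strand: aggtcctgtcTTTGAAgtctgcagtg
All 11 have the form TTTGAA. The match begins within 30 bases of the RefSeq start except in Kif2c, 103 bases before it, and in Kif14, 228 bases before it. The windows of Kif2c, Kif14 and Kif4 do not contain the GENCODE gene start, at chr4:117182639, chr1:136466343 and chrX:100625737.

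The CCAAT box, often found upstream of a CHR, was searched as CCAAT and was present in 8 of 12 mitotic kinesins (66.7%) and 6 of 15 transport kinesins (40.0%), beside 37.4% of all windows. The whole window of Kif23, a motor of the central spindle needed for cytokinesis, shows a CCAAT box, here on the reverse strand, 4 bases before the CHR, both in capitals.
Kif23, chr9:61946750-61947049, minus strand: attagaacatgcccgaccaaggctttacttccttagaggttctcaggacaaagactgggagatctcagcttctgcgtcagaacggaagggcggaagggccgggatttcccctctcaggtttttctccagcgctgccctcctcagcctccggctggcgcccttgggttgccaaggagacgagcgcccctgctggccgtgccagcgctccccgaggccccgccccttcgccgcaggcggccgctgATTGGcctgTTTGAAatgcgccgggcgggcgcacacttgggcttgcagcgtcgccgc
TATAAA was present in 1 transport kinesin (6.67%) and 1 mitotic kinesin (8.33%), beside 13.6% of all windows.

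Most kinesins had a smaller share of the long-tail libraries than of the total libraries, in both knockdown and scrambled neurons, and long transport kinesins had the lowest. These are differences in shares of libraries and not measurements of tail length. In knockdown neurons the long-tail libraries lay below the total libraries without overlap in 25 of 43 kinesins (58.1%), against 40.0% of all genes, and long-tail library 1 alone lay below both total libraries in 32 kinesins (74.4%), against 58.7% of all genes. In scrambled neurons they did so in 22 of 43 (51.2%), against 39.6% of all genes. This was so in both in 18 kinesins (41.9%), against 29.4% of all genes.

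Among the transport kinesins the median long-tail minus total difference in log2(TPM + 1) was -0.65 in knockdown and -0.48 in scrambled neurons, among the mitotic kinesins it was -0.38 and -0.21, and over all genes it was -0.22 in both. Genes averaging 1 to 10 TPM, the range that holds the mitotic kinesins, had medians of -0.29 in knockdown and -0.22 in scrambled neurons. Genes of at least 20 TPM had medians of -0.16 and -0.195. Without knockdown long-tail library 2 the knockdown medians were -0.42 in transport and -0.48 in mitotic kinesins, and without library 1 they were -0.81 and -0.17, so the order of the classes in knockdown neurons depends on a single library. Relative to the median of all genes, which median-of-ratios scaling brings from -0.22 to -0.01 in both, the transport median lay at -0.43 in knockdown and -0.26 in scrambled neurons (-0.41 and -0.25 under that scaling), and the mitotic median at -0.15 and 0.01 (-0.16 and -0.01). Kif1a had 260 and 158 TPM in knockdown long-tail libraries, against 373 and 377 TPM in knockdown total libraries, and 228 and 239 TPM in scrambled long-tail libraries, against 349 and 375 TPM in scrambled total libraries. Klc1, with 498 and 680 TPM in knockdown long-tail libraries, against 644 and 600 TPM in knockdown total libraries, overlapped between the fractions.

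The differences followed transcript length, as they did across all genes. The principal transcripts of the transport kinesins have a median length of 5814 bases and those of the mitotic kinesins 3398 bases (GENCODE vM21). Across the 27 kinesins with a mean of at least 5 TPM, Spearman's rho between length and the long-tail minus total difference was -0.78 in knockdown and -0.80 in scrambled neurons. Across 6528 genes of at least 20 TPM it was -0.82 in both. Without knockdown long-tail library 2 it was -0.47 across the 27 kinesins and -0.56 across the 6528 genes in knockdown neurons. These correlations are across genes, which share libraries and are not independent replicates.

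Among genes of at least 20 TPM with transcripts over 5000 bases, the 11 kinesins had a median difference of -0.77 in knockdown and -0.53 in scrambled neurons, beside -0.74 and -0.50 for all 1124 such genes. All 11 were lower without overlap in both, beside 87.0% and 85.5% of such genes. Under 4000 bases the 6 kinesins had medians of -0.20 in knockdown and -0.31 in scrambled neurons, beside -0.02 and -0.09 for all 4589 such genes. Of these 6, 3 were lower without overlap in knockdown neurons (50.0%), beside 23.9% of such genes, and 5 in scrambled neurons (83.3%), beside 29.3%. Without knockdown long-tail library 2 the knockdown medians were -0.51 in the 11 long kinesins, beside -0.42 for all such genes, and -0.32 in the 6 short ones, beside -0.15. Kif3a, at 3161 bases, had the lowest difference of these 6 in knockdown and in scrambled neurons, with 65 and 59 TPM in knockdown long-tail libraries, against 109 and 96 TPM in knockdown total libraries, a log2(TPM + 1) difference of -0.71 (SE 0.145, limma adjusted p = 0.14).

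**Figure D5:**
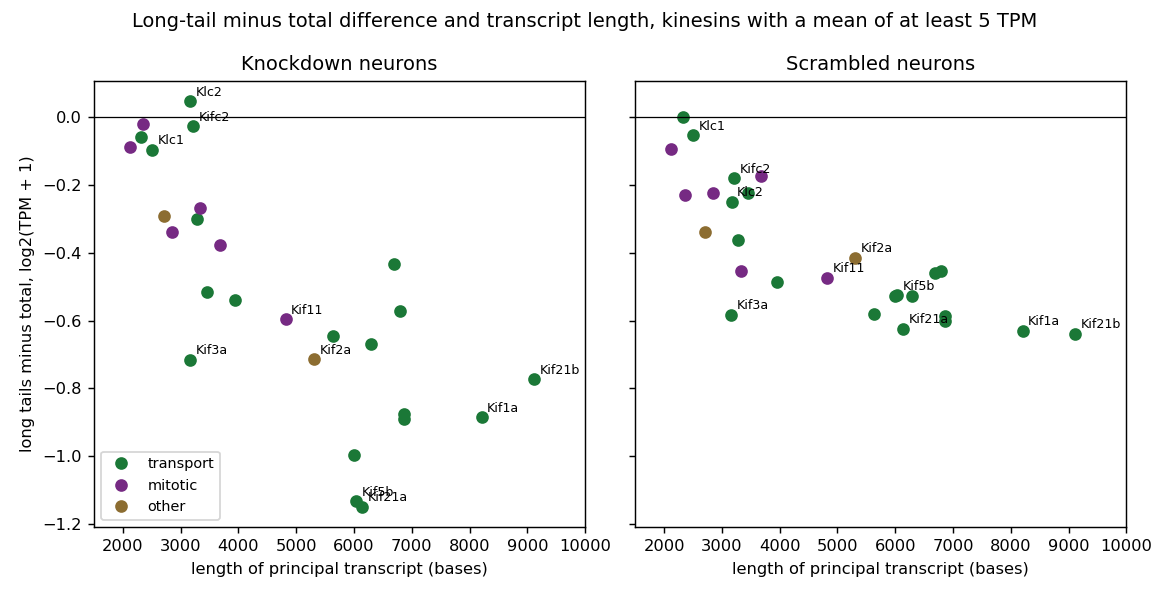
Long-tail minus total difference in log2(TPM + 1) against the length of the principal transcript in bases, for the 27 kinesins with a mean of at least 5 TPM, in knockdown neurons (left) and scrambled neurons (right), 1 point per gene. Points fall with length in both panels, from near 0 at Klc1 to -0.77 in knockdown and -0.64 in scrambled neurons at Kif21b, and the lowest point in knockdown neurons is Kif21a at -1.15.

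After adjustment limma called no kinesin for long-tail minus total, in knockdown (0% of all genes called) or in scrambled neurons (0% of all genes called). At an unadjusted p under 0.05, 19 of 43 kinesins were lower in long tails in knockdown neurons (44.2%), against 25.1% of all genes, and 12 in scrambled neurons (27.9%), against 12.9% of all genes. Fitted without knockdown long-tail library 1, so that library 2 alone stands for the group and is assumed to vary like the other libraries, limma called 12 kinesins in knockdown neurons (27.9%), all lower in long tails, beside 2125 of all 13681 genes (15.5%), 2012 of them lower. Without library 2 it called 0 kinesins and 0 genes, and at an unadjusted p under 0.05 13 kinesins were lower (30.2%), against 15.7% of all genes.

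Subtracting the total RNA difference from the long-tail difference tests whether the fractions responded unlike each other. Limma called no kinesin for it (0% of all genes called), and 0 of 43 had an unadjusted p under 0.05, against 0.877% of all genes. For Klc1 it was -0.04 with a 95% interval from -0.68 to 0.59, and for Kif2a -0.30 with an interval from -0.71 to 0.11, and both intervals include 0.

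Genes that work with kinesins were described from lists. Of 34 cargo adaptors tested, 12 were higher and 22 lower in knockdown total RNA (median -0.05), and 10 were higher and 24 lower in knockdown long-tail RNA. At an unadjusted limma p under 0.05, 0 were higher and 1 lower in total RNA, against 2.05% and 4.30% of all genes, and 1 was higher (Ppfia3) and 2 were lower (Snapin and Spag9) in long-tail RNA, against 2.25% and 6.47% of all genes. The gene lower in total RNA was also Snapin, which links late endosomes and synaptic vesicles to motors, with 59 and 53 TPM in knockdown total libraries, against 72 and 71 TPM in scrambled ones, and 52 and 54 TPM in knockdown long-tail libraries, against 62 and 76 TPM in scrambled ones (adjusted p = 0.747 and 0.544). Ppfia3, a liprin that binds Kif1a, had 81 and 66 TPM in knockdown total libraries, against 61 and 53 TPM in scrambled ones, and 59 and 51 TPM in knockdown long-tail libraries, against 41 TPM in both scrambled ones (limma adjusted p = 0.825 in total and 0.55 in long-tail RNA). Spag9, a scaffold that binds kinesin light chains, had 35 and 27 TPM in knockdown long-tail libraries, against 43 and 63 TPM in scrambled ones (log2(TPM + 1) difference -0.74, limma adjusted p = 0.556), and 58 and 78 TPM in knockdown total libraries, against 73 and 101 TPM in scrambled ones. Of the 28 subunits and partners of dynein and dynactin, the motor that runs toward minus ends, 14 were higher and 14 lower in knockdown total RNA (median 0.00) and none had an unadjusted limma p under 0.05, against 2.05% of all genes higher and 4.30% lower. In long-tail RNA 15 were higher and 13 lower (median 0.03), and 1, Hook1, had an unadjusted limma p under 0.05. Hook1, a dynein adaptor, had 3 and 2 TPM in knockdown long-tail libraries, against 4 and 6 TPM in scrambled ones (log2(TPM + 1) difference -0.77, limma adjusted p = 0.503), and 7 and 9 TPM in knockdown total libraries, against 8 and 8 TPM in scrambled ones.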

How the data were processed

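Values are the authors' deposited gene table of TPM, a score here because the authors rounded it to whole numbers. The mm10 build and the tools TopHat2, RSEM, CASAVA, DESeq2 and DESeq are named per the submitters' processing notes, and their versions and roles are not given there. The authors' 2 deposited tables of changed genes hold a mean normalized count signal, log2 fold changes, p-values and adjusted p-values for 104 and 97 genes. Their signs were opposite to knockdown minus scrambled in TPM for every entry and were turned round. Names of 27 genes stood as dates and were not matched.

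Limma 3.58.1 (R 4.3.3) was fitted to log2(TPM + 1) of the 13681 genes averaging at least 1 TPM, over all 8 libraries, with 4 group means and a mean-variance trend, two-sided, with Benjamini-Hochberg adjustment over all genes in each of 5 comparisons. The pseudocount of 1 understates changes of low genes. The fit was tested on simulated data. With 2 libraries a group the smallest p of an exact permutation test is 0.333, and none was made. A DESeq2 or edgeR test needs counts and was not run.

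Positions and lengths come from GENCODE vM21 (GRCm38, the assembly of mm10), promoter windows from RefSeq (GRCm38.p6). The members, lists, marker genes and tests were chosen with earlier results of these data known. Levels in every library are given for kinesins in the authors' tables, with an unadjusted p under 0.05 or separated groups and a difference of at least 0.4 in both fractions, among the 8 most abundant, or among the 4 most abundant mitotic ones (5 with a tie), and for others where a comparison rests on them. Markers of excitatory, inhibitory and general neurons, astrocytes, the oligodendrocyte lineage, microglia, vessels and motile cilia were looked up, and of these only the values above are used. Alternatives were another pseudocount, filter, scaling or variance model, a replicate block, the libraries of a comparison alone, and leaving out each library.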

Additional observations from a re-analysis of the deposited data

How the results depend on the processing

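The knockdown differences of Klc1, Kif2a and Kif21b kept their direction under the 19 alternatives tried, and that of Kif19a under the 17 that keep it. Klc1 ran from 1.02 to 1.16 in total RNA (adjusted p from 0.0329 to 0.791) and from 0.80 to 1.25 in long-tail RNA (0.0577 to 0.731), Kif2a from 0.86 to 1.03 (0.0785 to 0.395) and from 0.57 to 0.73 (0.101 to 0.736), and Kif21b from -0.55 to -0.41 (0.255 to 1.0) and from -0.94 to -0.33 (0.0577 to 0.966). Quantile normalization called 1 kinesin in total RNA, Klc1 (adjusted p = 0.0329), among 4 of all genes, and gave the mitotic kinesins a long-tail median of 0.011. Using only the libraries of the comparison called 1 kinesin in long-tail RNA, Kif27 (adjusted p = 0.0327), among 83 of all genes. Leaving out each library in turn called 0 to 12 kinesins for long-tail minus total in knockdown neurons, the 12 without knockdown long-tail library 1, and 0 in the other comparisons. It moved the mitotic median in total RNA between -0.076 and 0.208, highest without knockdown total library 1, and the transport median in long-tail RNA between -0.304 and 0.011, highest without knockdown long-tail library 2. The causes were not tested. With the replicate block 0 kinesins were called in any comparison. The labels give the libraries shared numbers without saying that they mark a culture or day, and same-numbered deviations correlated at -0.116 to 0.759. Swapping the numbers of the knockdown long-tail libraries, run for long-tail minus total in knockdown neurons alone, also called 0 kinesins, an alternative chosen after seeing the data. The interaction needs all 8 libraries, and a filter at 20 TPM leaves no mitotic kinesin. Over all genes, limma called 0 in each comparison and up to 50 in knockdown total and 83 in knockdown long-tail RNA (only the libraries of the comparison), up to 2125 for long-tail minus total in knockdown neurons (without knockdown long-tail library 1; 97 with only its own libraries) and up to 87 in scrambled neurons, and 0 for the difference between fractions under every alternative run. Read depth is unknown, and whole-number TPM limit kinesins near 1 TPM.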
